A study of Mus musculus with 16 samples.

Results

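The genes described here are 45 genes of the integrated stress response and of amino acid supply, chosen by symbol from the 48526 genes of the study's tables, and all 45 were found there. They are 14 regulators and effectors of the ATF4 pathway, 11 enzymes that make serine, glycine, asparagine and proline or carry folate-bound carbon units, 8 amino acid transporters and 12 cytosolic aminoacyl-tRNA ligases. Sequenced RNA came from the cardiac region, cut out under the microscope, of 16 C57BL/6J mouse embryos at embryonic day 8.5, when the heart tube forms and loops, in 2 lines that each carry an allele of Greb1l, a gene for a nuclear protein related to the hormone receptor cofactor GREB1. Line G3 gave 4 embryos with the genotype Greb1lem1Cjean/em1Cjean and 4 WT littermates, and line G17 gave 4 embryos with the genotype Greb1lex17/ex17 and 4 WT littermates. The labels name no treatment other than freezing of the tissue, and they do not say what either allele changes in the transcript or which embryos shared a litter. Each embryo is named here by its line, group and number, and the p-values measure the spread between these embryos.

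The integrated stress response starts with kinases that phosphorylate the translation initiation factor eIF2, among them GCN2 (Eif2ak4), which senses uncharged tRNA, and PERK (Eif2ak3), which senses unfolded protein in the endoplasmic reticulum. Phosphorylated eIF2 slows most protein synthesis while the mRNA of the transcription factor ATF4 is translated better, and ATF4 then drives genes for amino acid synthesis, amino acid uptake and tRNA charging. The same genes serve growth, since fast dividing embryonic tissue needs serine, glycine and charged tRNA for protein and nucleotide synthesis. Much of the control of ATF4 itself is on translation, so its mRNA level need not follow its protein.

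ATF4 binds DNA with C/EBP partners at a composite element, and the promoters of the members were searched for it because the members are grouped by this factor. RefSeq promoter sequences of build GRCm38.p6, from 250 bases before to 50 bases after the gene's start, were matched to 36 of the 45 members, 1 of them (Mars) through its newer symbol. The motif TGATGNAA was searched on both strands, and it occurred in 13 of those 36 members, or 36.1%, against 4.51% of all 27025 genes with a promoter in the table. The 13 were Aars, Asns, Chac1, Gars, Iars, Nupr1, Pycr1, Slc1a4, Slc7a11, Tars, Trib3, Vldlr and Yars. A match describes letters in this window and does not show binding. The windows below are 30 bases long, read 5′ to 3′ on the gene's own strand, with the motif in capitals. Where the motif lies on the opposite strand, the capitals show its reverse complement. The first 4 windows belong to 4 tRNA ligase genes that were lower in the embryos labelled mutant, and the last 3 to stress response genes with no call in any comparison. Of the 12 members called lower when both lines were fitted together, only these 4 are among the 13. Iars, another ligase gene of the 13, was not called, and its window is not shown. A link between motif and call was not tested.
Aars, chr8:111033840-111033869, plus strand, 9 bases after the start: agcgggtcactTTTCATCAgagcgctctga
Gars, chr6:55037960-55037989, plus strand, 30 bases before the start: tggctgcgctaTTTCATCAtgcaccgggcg
Tars, chr15:11399655-11399684, minus strand, 15 bases before the start: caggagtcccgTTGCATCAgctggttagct
Yars, chr4:129189895-129189924, plus strand, 3 bases after the start: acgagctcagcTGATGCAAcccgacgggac
Asns, chr6:7693214-7693243, minus strand, 23 bases before the start: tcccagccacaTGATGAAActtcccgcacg
Trib3, chr2:152344028-152344057, minus strand, 14 bases after the start: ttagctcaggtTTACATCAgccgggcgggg
Chac1, chr2:119351038-119351067, plus strand, 193 bases before the start: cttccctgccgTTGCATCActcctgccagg
These windows differ in strand and in distance from the start, and the promoters of Eprs and Mars, both called ligase genes, hold no match to these letters.

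Libraries held 32391421 to 49353025 reads in genes, and 18002 to 22689 genes had at least 1 read. Greb1l transcripts were higher in the G3 embryos labelled mutant than in their littermates, 20144 ± 3377 against 10984 ± 1319 normalized reads (SD, n = 4 each), and lower in the G17 embryos, 4215 ± 961 against 9818 ± 508. Neither line's groups overlapped (exact two-sided permutation p = 0.02857 in each line, the smallest that 70 arrangements allow). Since the G3 level runs opposite to that of G17, the wording "labelled mutant" is kept, and every direction given for G3 or for both lines together rests on those labels. The 8 cardiomyocyte markers were present in every embryo, with summed levels of 127929 to 244186 normalized reads. None was called by limma, edgeR or DESeq2. The log2 difference was positive for 7 of the 8 in each line, with medians of 0.14 in G3 and 0.26 in G17. At an unadjusted p under 0.05, 0 were higher in G3, 2 in G17 and 3 in both lines together, and 0 were lower. Their part in the results was not tested. Judged by Xist and the Y chromosome, the sexes were balanced in both G3 groups (2 of each), whereas G17 gave females alone (8 of 8).

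Markers of other tissues differed with the groups and stand here because they bear on the results that follow. The 9 markers of yolk sac visceral endoderm, the tissue that wraps the embryo, summed to 24536 to 92581 normalized reads in G3 controls and 6881 to 30635 in G3 embryos labelled mutant. In G17 they summed to 34853 to 255427 in controls and 9894 to 51441 in mutants, so the groups overlapped in each line. None of the 9 was called in G3, by limma, edgeR or DESeq2. All 9 had a negative log2 difference there (median -1.29), and 6 were lower at an unadjusted p under 0.05. In G17 6 were called lower, and 8 in both lines together, and 1 marker was at 0 in at least 1 embryo of each labelled mutant group. The 6 foregut endoderm markers summed to 10613 to 14380 in G3 controls and 15725 to 17102 in G3 embryos labelled mutant, without overlap, while the G17 groups overlapped. Of these markers, Epcam was called higher in each line and in both together (log2 difference 0.62 ± 0.07, adjusted p = 3.2e-06), and Sox17 in G3. None was called lower, and the log2 difference was negative for 1 of the 6 in G3 and 2 in G17. The summed markers of neural crest, endothelium and primitive erythrocytes overlapped between the groups of each line. Single neural crest markers were called lower nonetheless, Sox10 and Foxd3 in G3 and these with Tfap2b in both lines together, where Sox10 gave a log2 difference of -2.48 ± 0.68 (adjusted p = 0.0237). No erythrocyte marker was called, with 3 of 4 tested in G3 higher at an unadjusted p under 0.05 and 0 called by edgeR and DESeq2 there. The part of these markers in the results was not tested. In bulk tissue, fewer cells of a type and less RNA per cell cannot be told apart.

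In the control embryos the members spanned a wide range of level per length, given in RPKM, which scales reads by exon length and by library size, over 8 controls. Gars, the glycyl-tRNA ligase, stood first at 77.6 ± 3.08 RPKM, followed by Atf4 at 67.9 ± 8.85 and Phgdh, the first enzyme of serine synthesis, at 61.3 ± 5.76. All 12 tRNA ligases lay between 10.1 RPKM for Cars and that of Gars. Targets of the stress response differed widely in level. Psat1 stood at 47.9 ± 4.53 RPKM, Asns at 18.5 ± 3.16 and Ddit3 at 3.13 ± 1.18, while Trib3, Chac1 and Slc7a11 were near the bottom. Trib3, a pseudokinase that restrains ATF4, had 0.871 ± 0.934 RPKM, Chac1, which degrades glutathione, 0.639 ± 0.459, and Slc7a11, the cystine importer, 0.0571 ± 0.0397. The kinases lay in between, Eif2ak4 at 6.91 ± 0.67 RPKM and Eif2ak3 at 4.03 ± 0.664. Every member overlapped the next one down in its range over the 8 controls, so the order of neighbours is not fixed by these data. Chac1, Aldh1l2, Nupr1 and Slc7a11 each had 0 reads in at least 1 control, and a count of 0 allows up to 3 reads.

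**Figure D1:**
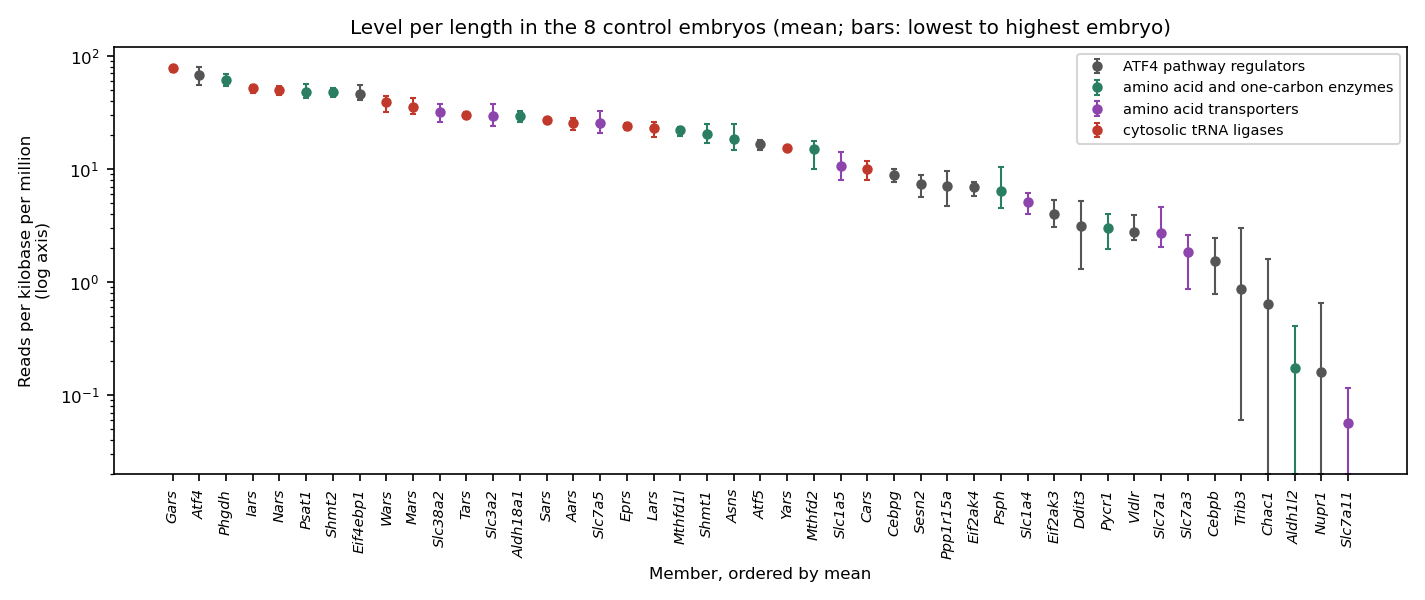
Level of each member in the 8 control embryos, in RPKM on a log axis, ordered by mean and coloured by role. Points are means and bars run from the lowest to the highest embryo. Bars that run off the bottom of the axis reach 0. Gars, Atf4 and Phgdh lead, and Slc7a11 and Nupr1 are last.

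The comparison of each line's embryos labelled mutant with their littermates asks which members changed with the Greb1l alleles. A gene counts as called when its Benjamini-Hochberg adjusted p, over all genes tested in the limma fit, is under 0.05, and values below are normalized reads per embryo. Of the 44 members tested in each line, 1 was lower in G3 (Phgdh) and 4 were lower in G17 (Phgdh, Psat1, Eif4ebp1 and Yars). The log2 difference was negative for 27 of the 44 in G3 and 34 of the 44 in G17, where it was for 48.1% and 51.4% of all genes. No member was called higher in either line. Over all genes tested, 1.63% were called lower and 2.35% higher in G3, and 1.16% lower and 1.87% higher in G17. At an unadjusted p under 0.05, 2 members were higher and 12 lower in G3, and 1 was higher and 16 lower in G17. edgeR also called 0 members higher in either line, and DESeq2 called 0 in G3 and 1 in G17.

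When both lines were fitted together with the line as a term (the common effect), 12 of 45 members were lower and 0 were higher, where 4.39% and 5.01% of all 20010 genes were called lower and higher. At an unadjusted p under 0.05, 2 members were higher and 16 lower, and edgeR and DESeq2 called 0 higher. The 12 were Phgdh, Psat1 and Aldh18a1 among the enzymes, the transporter Slc7a5, the translation inhibitor Eif4ebp1, and the ligases Aars, Eprs, Gars, Mars, Nars, Tars and Yars. Their falls were small, from 0.15 to 0.41 on the log2 scale. The log2 difference was negative for 31 of the 45, where it was for 49.6% of all genes, and its median over the 45 was -0.12, against 0.00 over all genes. A fit with the yolk sac marker level as a term, chosen after the data were seen, left 3 of these 12 called (Phgdh, Eif4ebp1 and Aars) and none within either line. Calls over all genes also became fewer with that term, from 878 to 350 lower in the common effect and from 206 to 34 lower in G17. Among the 9 members that lost the call, the differences of Slc7a5 (-0.27), Yars (-0.22), Nars (-0.20), Mars (-0.20) and Eprs (-0.14) were close to those without the term. Those of Aldh18a1 (-0.14), Gars (-0.13), Tars (-0.10) and Psat1 (-0.08) were smaller than without it, that of Psat1 the most. Fits that left out each embryo in turn called 8 to 12 members lower, and 8 of the 12 were called in all 16 such fits (Aars, Eif4ebp1, Eprs, Gars, Phgdh, Psat1, Slc7a5 and Yars).

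**Figure D2:**
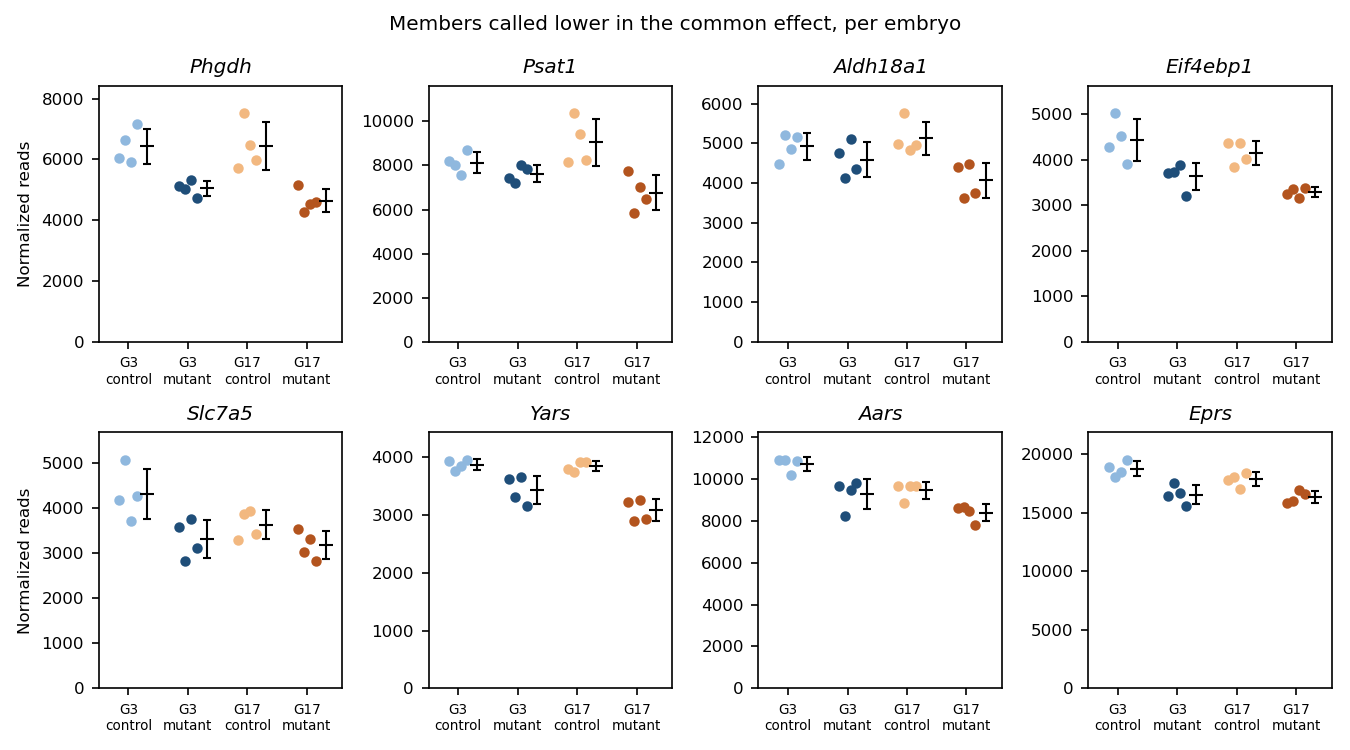
Normalized reads of Phgdh, Psat1, Aldh18a1, Eif4ebp1, Slc7a5, Yars, Aars and Eprs, from the 12 members called lower in the common effect. Each gene has 1 panel, with each point an embryo and the bar and whisker the mean and SD of 4 embryos. Gars, Mars, Nars and Tars are not drawn. The y axes start at 0, and each panel has its own scale. In Phgdh, Eif4ebp1, Aars, Eprs and Yars every embryo labelled mutant lies below every control of its line in both lines.

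Among the ATF4 pathway genes, the member called by limma was Eif4ebp1 (ENSMUSG00000031490, chr8:27260329-27276674, plus strand), which encodes a repressor of cap-dependent translation that the kinase mTORC1 switches off. Its G3 controls had 4279, 5021, 4517 and 3920 normalized reads and the G3 embryos labelled mutant 3714, 3737, 3889 and 3205. In G17 the controls had 4372, 3844, 4380 and 4029 and the mutants 3255, 3360, 3158 and 3391. All embryos labelled mutant were below all controls of their line. The G17 means were 4156 ± 265 and 3291 ± 106 (SD, n = 4 each), a log2 difference of -0.33 ± 0.08 (SE, adjusted p = 0.0374). In G3 the difference was -0.28 ± 0.09 (adjusted p = 0.0913), and the common effect was -0.31 ± 0.06 (adjusted p = 0.00109). In G17 the call was lost in 7 of 8 refits that dropped an embryo and with the yolk sac term (adjusted p = 0.158). The common effect stayed called with that term, at -0.38 (adjusted p = 0.00344).

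Atf4 itself (chr15:80255184-80257541, plus strand) was not called by limma in either line. Its G3 controls had 7518, 7449, 6131 and 7843 normalized reads and the G3 embryos labelled mutant 6569, 5692, 6198 and 5897, groups that overlap through control 20, a log2 difference of -0.24 ± 0.08 (adjusted p = 0.11). DESeq2 called this difference in G3 (adjusted p = 0.0397), as did limma without G3 control 20 (-0.32, adjusted p = 0.0266). In G17, controls had 5843, 5672, 6424 and 7078 and mutants 6382, 6083, 6516 and 6075, with means of 6254 ± 636 and 6264 ± 220. The difference between the lines, 0.25 ± 0.11, did not pass (interaction adjusted p = 0.774). Atf5, a related factor that also responds to stress at translation, differed by 0.03 ± 0.10 in G3 and -0.05 ± 0.12 in G17 (adjusted p = 0.909 and 0.901).

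Ddit3, which encodes the pro-apoptotic factor CHOP, was low and varied between embryos. Its G3 controls spanned 180 to 370 normalized reads and the G3 embryos labelled mutant 158 to 380, a log2 difference of 0.02 ± 0.31 (adjusted p = 0.984). In G17, controls had 201, 259, 173 and 93.4 and mutants 364, 267, 241 and 266, a difference of 0.72 ± 0.34 (adjusted p = 0.312). The G17 groups overlapped through mutant 41, and the spread of Ddit3 does not resolve a difference of this size. Ddit3 and Mars overlap at their ends on opposite strands, and it is not known whether the counting told strands apart.

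The sensor kinases were not called. Eif2ak4 had 2203 ± 118 and 2187 ± 66.5 normalized reads in G3 controls and G3 embryos labelled mutant, and 2145 ± 314 and 2192 ± 118 in G17. Eif2ak3 ran the opposite way in the 2 lines, with G3 controls at 947, 772, 930 and 942 and all 4 G3 embryos labelled mutant above them at 1060, 1024, 976 and 1079. In G17 its controls had 1111, 1389, 1098 and 1021 and its mutants 1010, 987, 1089 and 772. The difference was 0.21 ± 0.11 in G3 and -0.26 ± 0.15 in G17 (adjusted p = 0.359 and 0.425), and the difference between lines did not pass (-0.47 ± 0.18, adjusted p = 0.723). Cebpb, a C/EBP factor that partners ATF4, had 94.4, 88.7, 103 and 91 normalized reads in G3 controls and 144, 147, 124 and 184 in G3 embryos labelled mutant, without overlap. Its log2 difference of 0.65 ± 0.30 did not pass (adjusted p = 0.275), and its G17 groups overlapped from 50.0 to 160 and 51.8 to 241. Groups without overlap in the higher direction are found for 5.91% of all genes in G3, and 2 members (Cebpb and Eif2ak3) were among them.

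The remaining regulators were Trib3, Chac1, Sesn2, Vldlr, Cebpg, Ppp1r15a and Nupr1, and none was called. Sesn2, an inhibitor of mTORC1 during amino acid shortage, had 1220, 1400, 2635 and 1090 in G3 embryos labelled mutant, where mutant 30 stands apart, against 1028 to 1297 in controls. The same embryo also had the highest Slc1a4 of its line at 1828 normalized reads. Trib3 ranged from 20.2 to 264 in G3 controls, with the highest value in control 18. Chac1 had 0, 38.0, 109 and 59.1 in G3 controls and 40.4, 44.0, 24.3 and 36.9 in G17 controls, while its G17 mutants had 12.0, 1.86, 30.9 and 0. The values of 0 and 1.86 lie below the 2.53 to 3.84 normalized reads that 0 reads allow in these libraries, and the groups overlapped. Nupr1 missed the filter on low values in both lines, with 0 in 3 of the 4 embryos of each labelled mutant group, and was tested only in the fits of both lines together.

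Of the serine synthesis enzymes, Phgdh (ENSMUSG00000053398, chr3:98313170-98339990, minus strand) was the member with the smallest p in the common effect. It encodes phosphoglycerate dehydrogenase, which diverts a glycolytic intermediate into serine. G3 controls had 6039, 6640, 5914 and 7149 normalized reads and G3 embryos labelled mutant 5134, 5035, 5307 and 4729. G17 controls had 5717, 7513, 6490 and 5990 and mutants 5161, 4270, 4541 and 4600. In both lines all embryos labelled mutant were below all controls, at 78.5% of the control mean in G3 and 72.2% in G17. The log2 difference was -0.35 ± 0.07 in G3, -0.46 ± 0.09 in G17 and -0.41 ± 0.06 in the common effect, with adjusted p = 0.0155, 0.0191 and 0.000136. Leaving out mutant 29 ended the call in G3 (adjusted p = 0.0509), and leaving out control 35 or mutant 36, 41 or 42 ended it in G17. A named pseudogene, Phgdh-ps1, exists in the annotation, so reads of near-identical sequence may be shared.

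The order of Phgdh was that of the yolk sac markers in both G17 groups but not in either G3 group. Among G17 controls, embryo 29 had the highest summed markers (255427) and the highest Phgdh, and embryo 20 the lowest of both. Among G17 mutants, embryo 33 had the highest of both (51441 and 5161) and embryo 36 the lowest of both (9894 and 4270). The remaining embryos of each G17 group stood in the same order. In G3 controls embryo 21 had the highest of both (92581 and 7149), but embryo 18 had the lowest sum (24536) and the second highest Phgdh (6640). Among G3 embryos labelled mutant, embryo 23 had the lowest sum (6881) and the second highest Phgdh (5134). With the yolk sac marker level as a term, the common difference of Phgdh was -0.26 (adjusted p = 0.0243), and within lines it was -0.31 in G3 and -0.20 in G17, with adjusted p = 0.118 and 0.575. Psat1 (ENSMUSG00000024640, chr19:15904678-15947337, minus strand), the aminotransferase of the next step, fell in G17, from 8160, 10362, 9437 and 8237 to 7734, 5844, 7003 and 6469 normalized reads, with no overlap. That is a log2 difference of -0.42 ± 0.10 (adjusted p = 0.0392), which was lost in 6 of 8 refits that dropped an embryo and was -0.14 with the yolk sac term (adjusted p = 0.787). In G3 it was -0.09 ± 0.06 (adjusted p = 0.447) with overlapping groups, and the difference between lines did not pass (-0.33 ± 0.12, adjusted p = 0.712). Its common difference of -0.26 ± 0.07 (adjusted p = 0.0206) became -0.08 with the yolk sac term (adjusted p = 0.687). Psph, which completes serine synthesis, was not called, with -0.09 ± 0.13 in G3 and -0.43 ± 0.21 in G17.

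**Figure D3:**
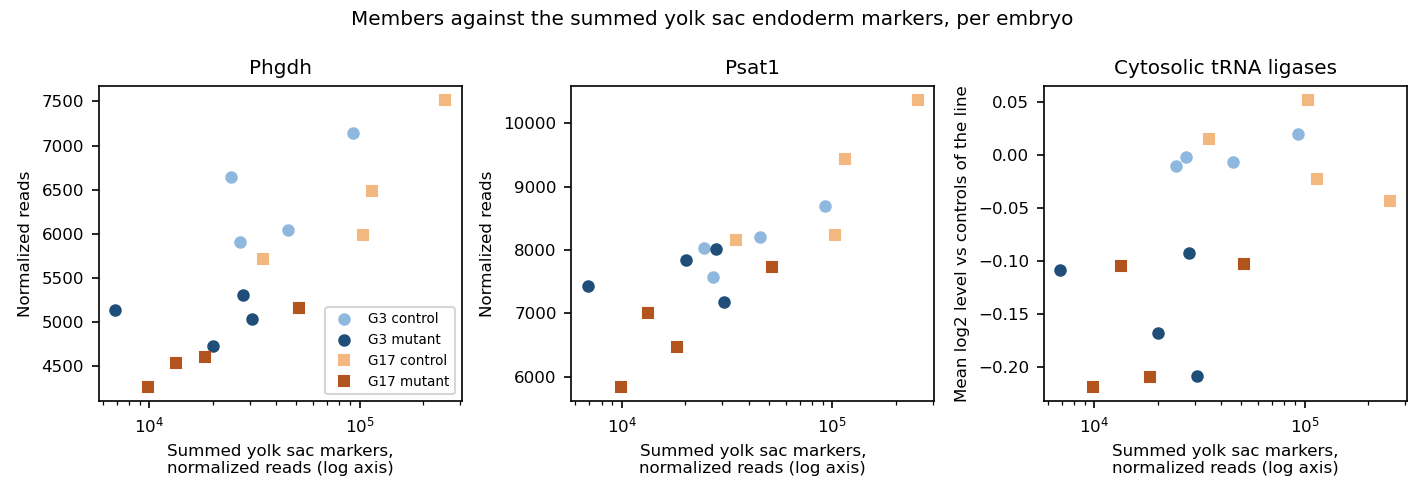
Level of members against the summed yolk sac visceral endoderm markers of the same embryo, in normalized reads on a log axis, with each point an embryo and colours and shapes for the 4 groups. Embryos labelled mutant lie toward lower marker sums, from 6881 to 51441, and controls reach 255427. The part of this difference in the members' results was not tested beyond the fit with the marker level as a term.

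None of the enzymes that exchange serine, glycine and folate-bound carbon units was called. Shmt1, the cytosolic serine hydroxymethyltransferase, had 3133 ± 353 and 3569 ± 229 normalized reads in G3 controls and embryos labelled mutant, and 3585 ± 451 and 3994 ± 119 in G17. Its common difference was 0.18 ± 0.06 (adjusted p = 0.0808), positive in both lines. Mthfd1l, a mitochondrial enzyme that releases formate, gave 0.15 ± 0.05 (adjusted p = 0.0853). The mitochondrial enzymes Shmt2 and Mthfd2 gave -0.11 ± 0.07 and -0.24 ± 0.09 (adjusted p = 0.421 and 0.117). Both signs occur among these 4, and no difference between any of them and Phgdh was tested. Aldh18a1 (ENSMUSG00000025007, chr19:40550257-40588463, minus strand), the first enzyme of proline synthesis, was lower in the common effect, by -0.22 ± 0.07 (adjusted p = 0.0365). Its G17 controls had 4969, 5751, 4840 and 4949 normalized reads and its mutants 4392, 3627, 4478 and 3755, without overlap, while the G3 groups overlapped. Dropping single embryos ended this call in 10 of 16 refits. Asns, the asparagine synthetase whose promoter window is shown above, had 2264 ± 482 and 2117 ± 198 in G3, and 2004 ± 114 and 1635 ± 119 in G17, where the groups did not overlap. Its common difference of -0.19 ± 0.09 did not pass (adjusted p = 0.209). The median over the 11 enzymes was -0.08 in G3 and -0.29 in G17.

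Of the transporters, Slc7a5 (ENSMUSG00000040010, chr8:121881150-121907694, minus strand), the leucine importer LAT1 that supplies mTORC1 with its amino acid signal, was the one called by limma. G3 controls had 4169, 5068, 3723 and 4269 normalized reads and embryos labelled mutant 3573, 2826, 3755 and 3104. G17 controls had 3286, 3868, 3937 and 3419 and mutants 3532, 3034, 3316 and 2817. The groups overlapped in both lines, and limma called the difference in the common effect (-0.29 ± 0.08, adjusted p = 0.0186) but not within a line. In G3 alone it passed in 5 of 14 alternative settings, among them the authors' deposited DESeq2 result (adjusted p = 0.0419). The difference was -0.38 ± 0.11 in G3 and -0.19 ± 0.10 in G17, with adjusted p = 0.0677 and 0.354. With the yolk sac term the common difference was -0.27 (adjusted p = 0.154). Slc3a2, the heavy chain that carries LAT1 to the membrane, gave -0.25 ± 0.08 (adjusted p = 0.069), and its G17 groups did not overlap, at 4701 ± 895 against 3622 ± 295. DESeq2 called Slc3a2 in the common effect (adjusted p = 0.0347), as did limma without G3 control 16 (adjusted p = 0.0443). With the yolk sac term its difference was -0.08 in the common effect and -0.08 in G17, from -0.36 there without it (adjusted p = 0.772 and 0.944).

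The carriers of glutamine were not called by limma. Slc1a5, a carrier of neutral amino acids including glutamine, had 1767, 1459, 1685 and 1569 normalized reads in G17 controls and 1854, 2125, 2257 and 2278 in mutants. All 4 mutants were above all controls, which holds for 5.39% of all genes in G17 and no other member, a difference of 0.39 ± 0.11 that missed the threshold (adjusted p = 0.0739). DESeq2 on the recovered reads called it, and in the authors' deposited table its adjusted p was 0.04998, just under the threshold. With the yolk sac term the G17 difference was 0.20 (adjusted p = 0.786). In G3 the groups of Slc1a5 overlapped, at 2105 ± 326 and 1979 ± 312, and the difference between lines did not pass (0.48 ± 0.17, adjusted p = 0.699). Slc38a2, which brings glutamine and other small amino acids in with sodium and has the highest mean level per length of the transporters, gave 0.09 ± 0.07 in G3 and 0.08 ± 0.09 in G17. Slc7a1, Slc7a3, Slc7a11 and Slc1a4 were not called, and Slc7a11 stayed under 100 normalized reads in every embryo.

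Of the 12 tRNA ligases, limma called 7 lower in the common effect and 1 (Yars) within a line. DESeq2 called 2 lower in each line. In the authors' deposited DESeq2 results, Eprs passed in G3 (adjusted p = 0.0164), and Yars and Tars in G17 (adjusted p = 0.00624 and 0.0469). Each of the 12 had a negative log2 difference in both lines, where 32% of all 17108 genes tested in both lines did, and the 44 members tested in both had 23 such genes. The differences ran from -0.21 to -0.03 in G3 and from -0.32 to -0.04 in G17, with medians of -0.16 and -0.18. The mean level of the 12, relative to the controls of the line, was -0.010 to 0.019 in G3 controls and -0.209 to -0.093 in G3 embryos labelled mutant. In G17 it was -0.044 to 0.052 in controls and -0.219 to -0.103 in mutants, so the groups did not overlap in either line. Because the ligases were grouped by role with earlier results of these data known, these levels are a description.

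**Figure D4:**
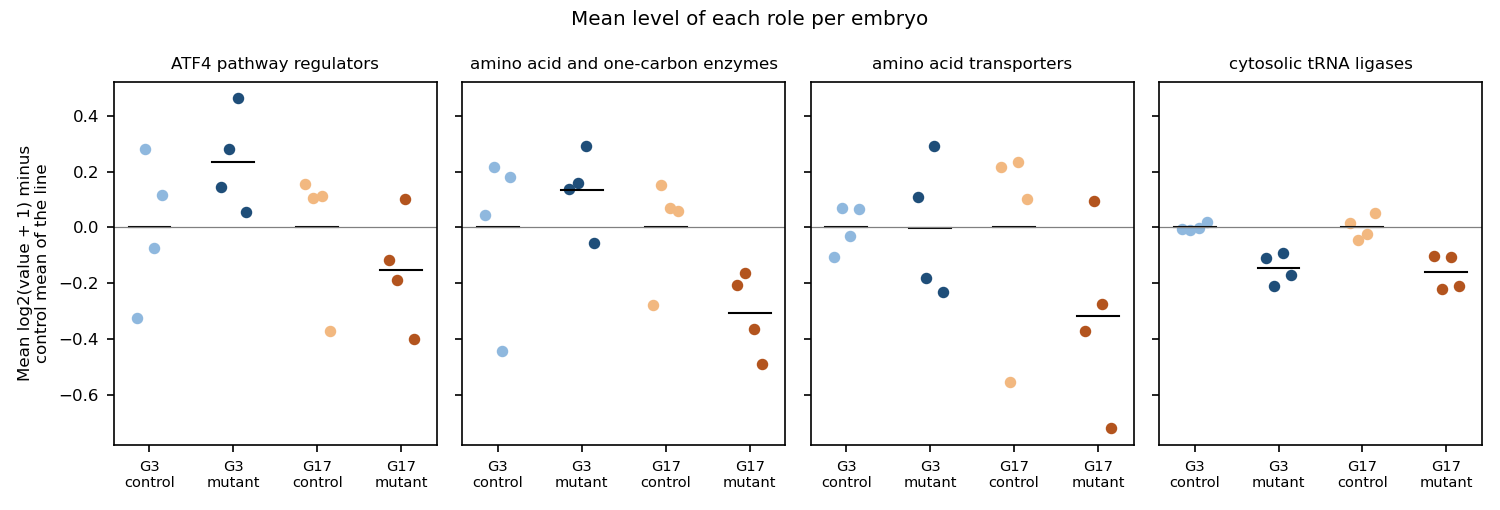
Mean log2(value + 1) of the members of each role in each embryo, minus the mean of the line's 4 controls, with each point an embryo. For the tRNA ligases the embryos labelled mutant lie from -0.219 to -0.093 and the controls from -0.044 to 0.052. For the other 3 roles at least 1 line's groups overlap.

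Yars (ENSMUSG00000028811, chr4:129189760-129219607, plus strand), the tyrosyl ligase, had the largest common difference of the 12. Its G3 controls had 3940, 3756, 3849 and 3955 normalized reads and embryos labelled mutant 3617, 3316, 3664 and 3154. Its G17 controls had 3794, 3751, 3923 and 3921 and mutants 3225, 2904, 3263 and 2934. There was no overlap in either line, and the mutants of G17 stood at 80.1% of the control mean. The difference was -0.18 ± 0.07 in G3 (adjusted p = 0.196), -0.32 ± 0.08 in G17 (adjusted p = 0.0434) and -0.25 ± 0.05 in the common effect (adjusted p = 0.00245). Within G17 the call was lost whichever of the 8 embryos was dropped. Aars (ENSMUSG00000031960, chr8:111033144-111057664, plus strand), the alanyl ligase, had 10882, 10903, 10185 and 10830 normalized reads in G3 controls and 9639, 8221, 9452 and 9780 in embryos labelled mutant. In G17 it had 9664, 8844, 9670 and 9659 in controls and 8614, 8669, 8462 and 7811 in mutants, again without overlap. The common difference was -0.19 ± 0.04 (adjusted p = 0.00556), and -0.23 with the yolk sac term (adjusted p = 0.0169). Other genes overlap 14.3% of the exon length of Aars on its own strand, so its reads may be shared in part.

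Eprs (ENSMUSG00000026615, chr1:185363044-185428360, plus strand) encodes a double ligase for glutamate and proline. Its G3 controls had 18937, 18018, 18461 and 19501 normalized reads and embryos labelled mutant 16395, 17491, 16705 and 15563. Its G17 controls had 17819, 18072, 17019 and 18419 and mutants 15821, 15998, 16970 and 16578. No group overlapped, with mutant 41 of G17 just below control 35, and the common difference was -0.15 ± 0.03 (adjusted p = 0.00629). Gars (ENSMUSG00000029777, chr6:55038007-55079500, plus strand) was lower without overlap in G3, at 10214, 9879, 10456 and 10730 against 9782, 9455, 9137 and 8754. In G17 mutant 33 at 9737 exceeded control 35 at 9448, and the common difference was -0.17 ± 0.04 (adjusted p = 0.0107).

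Nars (ENSMUSG00000024587, chr18:64499647-64516652, minus strand), the asparaginyl ligase, was lower in the common effect by -0.17 ± 0.05 (adjusted p = 0.0281), with G3 means of 9123 ± 704 and 8219 ± 205 and G17 means of 9096 ± 248 and 7948 ± 845. Mars (ENSMUSG00000040354, chr10:127296221-127311786, minus strand), the methionyl ligase, gave -0.19 ± 0.06 (adjusted p = 0.0428), from 5395 ± 504 to 4808 ± 313 in G3 and from 4873 ± 258 to 4231 ± 445 in G17. Both had overlapping groups in both lines. Tars (ENSMUSG00000022241, chr15:11382301-11399665, minus strand), the threonyl ligase, gave -0.15 ± 0.05 (adjusted p = 0.0458). Its G17 controls, 7395, 7175, 7371 and 7656, were all above the mutants, 6487, 5738, 6591 and 6398, while its G3 groups overlapped. Dropping single embryos ended the calls of Mars and of Tars in 12 of 16 refits, and that of Nars in 5. The ligases not called were Sars, Wars, Iars, Lars and Cars, with common differences from -0.13 to -0.08. With the yolk sac term, the median common difference of the 12 ligases was -0.14, against -0.15 without it, and Aars alone among them was called.

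**Figure D5:**
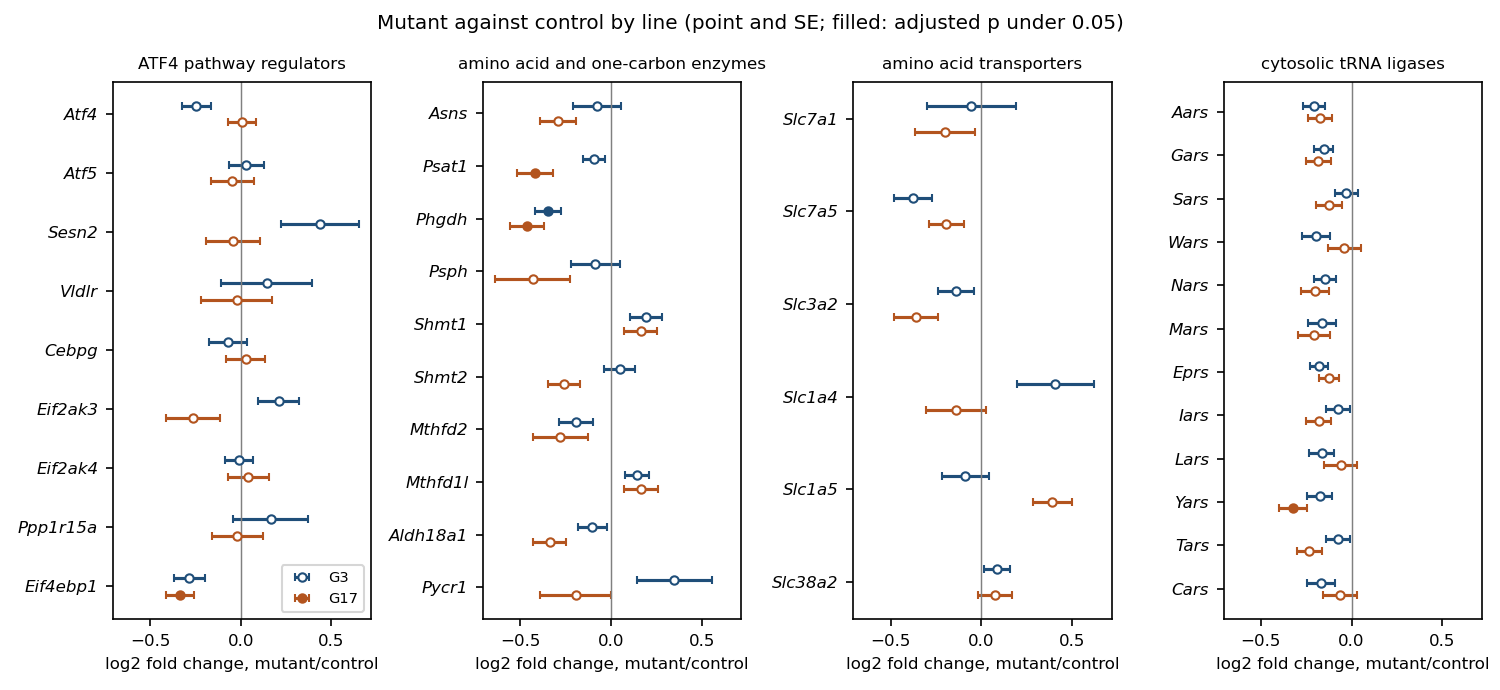
Log2 difference between embryos labelled mutant and control for the members with a mean of at least 500 normalized reads, by role and line, with the SE as a bar and filled points for an adjusted p under 0.05. All 12 tRNA ligases lie left of 0 in both lines, while the regulators lie on both sides. The filled points are Phgdh in G3 and Phgdh, Psat1, Eif4ebp1 and Yars in G17.

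Whether a member's response differed between the lines was tested as an interaction. No member passed, with 2 higher and 4 lower at an unadjusted p under 0.05, and edgeR and DESeq2 called 0 as well. The smallest adjusted p of a member was 0.699, for Slc1a5. Over all genes 0.005% passed in each direction, so calls made in 1 line do not show that the other line differed. The members that were lower without overlap in both lines were Phgdh, Eif4ebp1, Aars, Eprs and Yars, 5 of the 44, where 1.25% of all genes tested in both lines were. These 5 included, 6 members were lower without overlap in G3, against 5.61% of all genes, and 10 in G17, against 4.54%.

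Related genes outside the 45 were counted by list to set these results in their pathway. Of the 17 other integrated stress response genes tested, 4 were lower in G3 and 6 lower and 1 higher in the common effect, and of 16 tested in G17, 1 was lower and 1 higher. These stand beside 1.63%, 1.16% and 4.39% of all genes called lower in G3, G17 and the common effect. The lower genes were led by Eif2s2, the beta subunit of eIF2, which had 13012 ± 712 normalized reads in G3 controls and 9204 ± 516 in embryos labelled mutant, and 10933 ± 773 and 8786 ± 278 in G17. Its common difference of -0.41 ± 0.05 (adjusted p = 7.29e-06) was called, and so were its differences within each line. Eif2s1, the subunit that the stress kinases phosphorylate, gave -0.21 ± 0.04 (adjusted p = 0.00456). The higher gene of this list was Ddit4, an mTORC1 inhibitor induced by stress and hypoxia, at 1.06 ± 0.19 in the common effect (adjusted p = 0.000927).

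The endoplasmic reticulum list of 19 genes had no call in G3 (2 higher and 0 lower at an unadjusted p under 0.05, and 0 by edgeR and DESeq2) and 5 lower in G17. In the common effect 4 were lower and 0 higher, and 15 of the 19 had a negative difference. Over all genes, 1.16% were called lower in G17 and 4.39% in the common effect. Those in G17 included Hspa5, the chaperone BiP, at -0.36 ± 0.06 (adjusted p = 0.00825), Dnajc3, which inhibits the eIF2 kinases, at -0.49 ± 0.10 (adjusted p = 0.0224) and Hyou1, a partner chaperone, at -0.30 ± 0.06 (adjusted p = 0.0245). The median of the list was 0.05 in G3 and -0.22 in G17, and none of the 19 passed the interaction test, where 13 were lower at an unadjusted p under 0.05 and DESeq2 called 1.

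Among 22 other serine, glycine and folate genes, 4 were lower and 2 higher in the common effect. Gldc, which cleaves glycine, was lower in both lines, from 5235 ± 1179 to 3268 ± 320 normalized reads in G3 and from 7292 ± 2593 to 2906 ± 655 in G17 (adjusted p = 0.0135 and 0.00768). Gcsh, another subunit of the glycine cleavage system, gave -0.37 ± 0.08 in the common effect (adjusted p = 0.00411). Aldh1l1, a folate enzyme called higher there (adjusted p = 0.00185), was near the detection limit, at 0 to 23.5 normalized reads in controls and 20.5 to 79.7 in embryos labelled mutant. Of the other amino acid enzymes, Bcat2, which starts the breakdown of branched-chain amino acids, gave 0.36 ± 0.10 in the common effect (adjusted p = 0.0181) and Oat, which acts on ornithine, gave 0.68 ± 0.18 (adjusted p = 0.0217). Of 20 other transporters, 2 were higher and 4 lower, and Slc1a3, a glutamate carrier, was higher in both lines, from 1027 ± 187 to 1844 ± 313 in G3 and from 994 ± 154 to 1858 ± 75.3 in G17. The carrier Slc7a8 gave -1.90 ± 0.35 in the common effect (adjusted p = 0.0014). Its values spread widely, from 806 to 3096 in G3 controls and 230 to 898 in G3 embryos labelled mutant. In G17 they ran from 1165 to 6323 in controls and 376 to 1166 in mutants, so the groups overlapped in each line. Fits with the yolk sac term are not given here for the genes of these related lists.

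The other cytosolic ligases and their scaffold partners resembled the 12 in size. Of 11 tested, 10 had a negative difference in each line, with medians of -0.19 in G3 and -0.10 in G17. Within lines, 2 were called lower in G3 and 0 in G17, where DESeq2 called 2. In the common effect 3 were called lower, Vars (-0.21 ± 0.05, adjusted p = 0.00597), Rars (-0.16 ± 0.04, adjusted p = 0.00699) and Hars (-0.19 ± 0.05, adjusted p = 0.0154). Of 16 mitochondrial ligases, which charge tRNA inside mitochondria, none was called in any comparison. At an unadjusted p under 0.05, 2 were higher and 1 lower in G3, 1 higher in G17, and 1 higher and 1 lower in the common effect. edgeR called 0 in each, and DESeq2 called 1, higher in G3. Their median difference was -0.01 in G3, 0.02 in G17 and 0.03 in the common effect, close to the 0.00 of all genes.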

How the data were processed

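Total RNA of the cardiac region of each embryo, with RNA integrity numbers above 9, was sequenced as paired 100-base reads, per the labels' protocols. HISAT2, featureCounts of Subread, DESeq2 and build GRCm38 are named, without versions, per the submitters' processing notes; neither they nor the labels say how strand was handled. The authors deposited, per the file headers, for each line a normalized signal per gene and embryo, which the values show to be the read count divided by a size factor of the embryo. Multiplied back, 100% of these deposited values were whole read counts within a tolerance of 0.01 (tested for values under 10000 reads). The authors also deposited DESeq2 p-values and adjusted p-values, used only as an alternative.

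In R 4.3.3, limma 3.58.1 with a mean-variance trend was fitted to log2(value + 1), the 1 being the pseudocount, after a filter that kept genes with at least 10 normalized reads in at least 4 embryos. Fold changes on this scale understate those of low genes. G3 and G17 were fitted on their own 8 embryos, and the common effect and the interaction on all 16 with a line term, since the tables were normalized separately. Adjusted p-values are Benjamini-Hochberg over all genes tested. Levels per length are RPKM from recovered reads and the exon length of GENCODE M21, which also gave coordinates. On simulated data with known changes the fits were tested. Recovered reads were also fitted with edgeR 4.0.16 (quasi-likelihood), DESeq2 1.42.0 and limma-voom. Other alternatives were TMM scaling, filters, pseudocounts, thresholds, a sex term, both lines in 1 fit, and refits that dropped each embryo. A floor of 3 reads covers counting error only. No per-sample column was unused (0 columns).

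The members and lists were chosen with earlier results of these data known. Named members are all that were called in any comparison, up to 4 per role with the smallest p in the common effect, and Atf4, Atf5, Ddit3, Eif2ak3 and Eif2ak4. Other members, and up to 3 called genes per related list, are named for context, and members named beyond this were chosen after their values were seen. Of 122 genes on the 7 related lists, 121 matched, and Mars2 was not analysed here. Some results under these rules are not reported here.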

Additional observations from a re-analysis of the deposited data

Results flagged for a closer look

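Embryos standing apart from the other 3 of their group were looked for with Dixon's test in 108 groups of 4 embryos, and 7 were found, where chance flags about 1 group in 20. Eif2ak3 was low in G3 control 18, at 772 normalized reads against 930 to 947 in the other controls. Aldh18a1 was high in G17 control 29, at 5751 against 4840 to 4969. Aars was low in G3 control 20, at 10185 against 10830 to 10903, and in G17 control 29, at 8844 against 9659 to 9670. The mean level of the ATF4 pathway regulators, relative to the controls of the line, was low in G17 control 37, at -0.37 against 0.10 to 0.16 on the log2 scale. That of the transporters was low in G17 control 29, at -0.56 against 0.10 to 0.24. The mean level of all members was low in G17 mutant 42, at -0.43 against -0.18 to -0.14. G17 control 29 is also the embryo with the highest yolk sac marker sum, 255427 normalized reads, and its part in these values was not tested.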

How the results depend on the processing

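The members called lower in G3, 1 in the report, were 6 with DESeq2, 5 at a threshold of 0.1, 3 in the authors' deposited table and with a filter of 100 normalized reads, 2 with limma-voom and with a sex term, and 0 at a threshold of 0.01 and with the yolk sac term. In G17, 4 became 1 without a filter and 0 at 0.01 and with the yolk sac term, and 1 member (Slc1a5) was called higher with DESeq2, in the deposited table and at 0.1. In the common effect, 12 became 5 at 0.01 and 3 with the yolk sac term, and 2 were called higher at 0.1. Leaving out each embryo gave 0 to 2 lower in G3, 0 to 2 lower and 0 to 1 higher in G17, and 8 to 12 lower and 0 to 1 higher in the common effect. The G3 call was lost without mutant 29 and rose to 2 without control 18 or 20. In G17 no call was left without control 35 or mutant 36, 41 or 42, 1 was left without control 37, and 2 without control 20, control 29 or mutant 33. The cause was not tested. The 12 common calls were kept in full with edgeR, DESeq2, a filter of 100 and pseudocounts of 0.1 and 5, 11 were kept with a sex term, 10 with TMM and limma-voom and 9 without a filter. The interaction gave 0 throughout. The sex term could not be fitted within G17, where every embryo was female, and the yolk sac term was chosen after seeing the data.

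Sign changes were looked for only among members named by the stated rules, and they occurred only in members that were not called. With the yolk sac term they were Atf5 (-0.0123) and Eif2ak4 (0.00159) in G3, Cebpb (-0.0585) and Slc38a2 (-0.0460) in G17, and Eif2ak3 (0.0733) and Slc1a5 (-0.0567) in the common effect. With limma-voom they were Ddit3 in G3 (-0.0819) and Atf5 in the common effect (0.0115), and with TMM Eif2ak4 in G3 (0.000368). Leaving out embryos took Atf4 in G17 from -0.0381 to 0.0683, Atf5 from -0.0863 to 0.0181 in G17, -0.00861 to 0.0768 in G3 and -0.0288 to 0.0254 in the common effect, Ddit3 in G3 from -0.157 to 0.266, Eif2ak3 in the common effect from -0.0772 to 0.0393, and Eif2ak4 from -0.0404 to 0.117 in G17, -0.0359 to 0.0215 in G3 and -0.0237 to 0.0488 in the common effect. No analysis paired by litter was possible because the labels do not say which embryos shared a litter. The low reads of Chac1, Nupr1, Trib3 and Slc7a11 limit what these depths can show for them.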
